A study of Homo sapiens with 10 samples.

Results

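The distal enhancers lost in C4-2BER were 293 regions that carried both H3K27ac and H3K18ac in C4-2B cells and had a peak of neither mark in C4-2BER. They were chosen by the deposited peaks themselves. A member was a C4-2B H3K27ac peak at least 1000 bp wide, over 10 kb from every annotated transcription start site (TSS) of a protein-coding or lncRNA gene, overlapped by a C4-2B H3K18ac peak by at least 1 bp and by no C4-2BER peak of either mark. The C4-2B H3K27ac list held 68034 peaks, of which 8988 met every condition but the absence in C4-2BER. The members were 3.26% of these 8988 eligible regions, with a 95% Wilson interval of 2.91 to 3.65. The choice used the presence of peaks, so the absence of the members from C4-2BER is their definition and not a result.

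C4-2B cells come from a human prostate adenocarcinoma that grows without androgens. C4-2BER cells were derived from them by continuous culture in enzalutamide, an antiandrogen drug, to which they are resistant, and are labelled as neuroendocrine-like (NE-like). Each line is 1 culture-derived model, and drug exposure, selection and NE-like state cannot be told apart in it. ChIP-Seq, in which DNA bound to a modified histone is pulled down with an antibody and sequenced, was made in 2 libraries per mark and cell line from cells fixed with DSG and formaldehyde (8 in all), and each line had 1 input library. The authors merged the libraries of a mark and line before they called peaks, so each of the 4 lists gives 1 value per region, the spread between libraries is not known, and no test between the lines was possible. The lists give each peak a fold enrichment, the ratio of its ChIP signal to the local background, and hold no read counts, so the depth is unknown. All intervals below are 95% Wilson intervals and cover counting error only. "Lost" means that no peak was called in C4-2BER. It does not mean that acetylation was absent there.

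Enhancers are stretches of regulatory DNA that bind transcription factors and act on promoters over a distance. Acetylation of lysine 27 or lysine 18 of histone H3, laid down by the acetyltransferases p300 and CBP, marks active enhancers and promoters. In luminal prostate cells many enhancers are bound by FOXA1, HOXB13 and GATA factors, and a change of lineage is known to redistribute these marks. The promoters of the luminal markers KLK3, KLK2, TMPRSS2, HOXB13, FOXA1, SLC45A3, KRT8 and KRT18 carried both marks in both lines. Of 12 NE markers, 7 had an H3K27ac promoter peak in C4-2B and 7 in C4-2BER. Of 6 fibroblast markers, 2 had one in C4-2B and 3 in C4-2BER, and for 6 leukocyte markers the numbers were likewise 2 and 3.

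The central 300 bases of 2 members are printed to show the kinds of sequence that were lost. The first belongs to the member of second highest H3K27ac fold enrichment and is rich in A and T. The other belongs to the strongest member of a group of 4 weak ones in IQSEC1, which was picked after its values were seen, and is rich in G and C. That member overlaps an exon of IQSEC1, and how much of the printed window is exon was not examined. Both are the plus strand of GRCh38, at chr9:37870648-37870947 (DCAF10) and chr3:12920277-12920576 (IQSEC1), each named by the protein-coding gene with the nearest TSS. Capitals mark the matches, on either strand, to 2 motifs. The forkhead core that FOXA1 reads was searched as TGTTTNC. The site of GATA factors was searched as AGATAA.
DCAF10: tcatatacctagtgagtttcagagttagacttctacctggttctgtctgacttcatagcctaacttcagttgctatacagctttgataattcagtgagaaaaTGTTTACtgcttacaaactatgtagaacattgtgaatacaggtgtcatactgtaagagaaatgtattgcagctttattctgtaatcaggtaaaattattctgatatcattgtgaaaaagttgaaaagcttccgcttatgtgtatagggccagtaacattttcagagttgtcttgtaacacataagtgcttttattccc
IQSEC1: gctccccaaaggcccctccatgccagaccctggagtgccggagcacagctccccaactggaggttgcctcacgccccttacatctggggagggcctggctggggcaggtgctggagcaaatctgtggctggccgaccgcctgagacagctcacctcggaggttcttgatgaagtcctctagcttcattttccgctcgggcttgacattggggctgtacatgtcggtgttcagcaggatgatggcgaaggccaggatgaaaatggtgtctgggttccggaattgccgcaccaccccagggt
The DCAF10 sequence held a forkhead match at base 103. No match to either motif was found in the window at IQSEC1, and a missing match says only that these letters are not there. The GC content was 34.7% at DCAF10 and 61.0% at IQSEC1, which held 11 CpGs against 1 at DCAF10.

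The other eligible regions give the scale. Both marks had a C4-2BER peak over 7516 of the 8988 (83.6%), which are called retained here. At 1127 regions (12.5%) only H3K18ac had a C4-2BER peak, and at 52 (0.579%) only H3K27ac did. The same conditions with the lines exchanged gave 1004 acquired regions of 12511 (8.03%, 7.56 to 8.51). Full loss of both marks was thus the second rarest of the 4 outcomes, and most regions that lacked an H3K27ac peak in C4-2BER kept an H3K18ac peak. The lists differed in length, with 72971 H3K27ac peaks in C4-2BER and 198451 and 197948 H3K18ac peaks in C4-2B and C4-2BER, and the part of list length in the shares of the other outcomes was not tested. With the C4-2BER H3K27ac list cut to the length of the C4-2B list, the lost share was 3.43%.

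Most members were weak and narrow peaks in C4-2B. Their H3K27ac fold enrichment ranged from 2.12 to 9.03 with a median of 2.55, and the middle of the distribution lay between 2.41 and 2.96. Retained regions had a median of 4.84, and regions that kept H3K18ac alone had one of 2.77. The median width was 1281 bp in the members, where the range was 1001 to 3945 bp, and 1840 bp in retained regions. H3K18ac, which the choice required only as present, had a median fold enrichment of 2.77 over the members (range 1.92 to 7.85) and 4.06 over retained regions, and its peaks covered a median of 99.0% of a member's length. These C4-2B values come from the lists that chose the members and are given as a description.

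The share of eligible regions that was lost was highest among the weakest peaks and reached 0 among the strongest. In the lowest decile by H3K27ac fold enrichment, 123 of 899 regions were lost (13.7%, 11.6 to 16.1), and in the next decile 77 of 899 (8.57%). The fifth decile, with a median fold enrichment of 4.02, lost 14 of 899 (1.56%), and the ninth lost 1. In the highest decile 0 of 899 were lost, which allows a share of up to 0.334%. By H3K18ac fold enrichment the share went from 17.1% in the lowest decile to 0.222% in the highest, and by width from 8.68% to 0. A weak peak lies nearer to the threshold of the peak caller, and the part of this in the loss was not tested. Any overlap with a C4-2BER peak kept a region out, and a wider region offers more bases for one. The median width was 1049 bp in the narrowest decile and 5365 bp in the widest, and the part of width was not tested either.

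**Figure D1:**
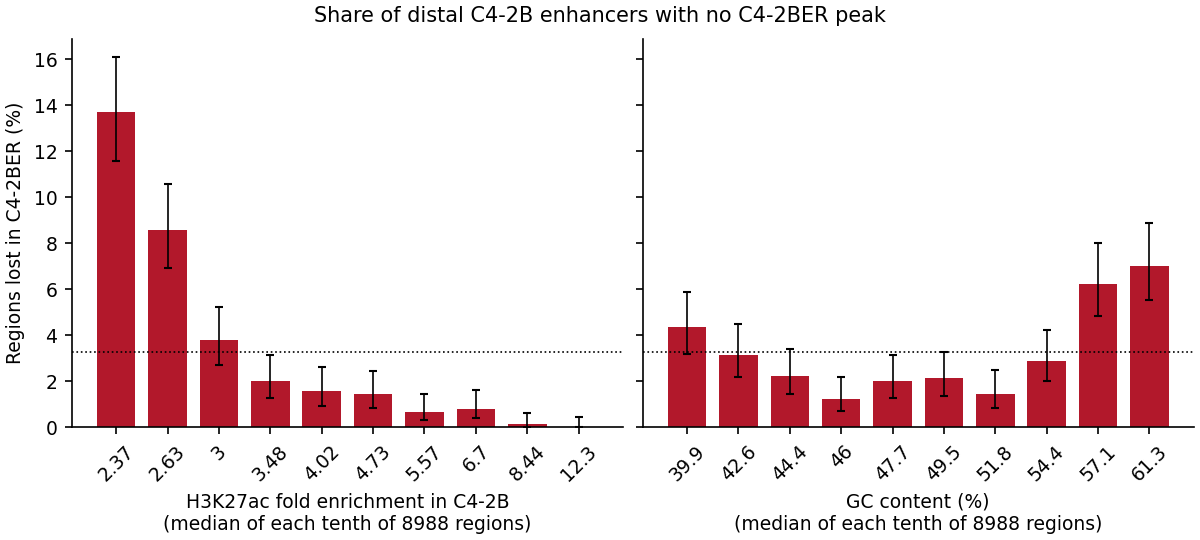
Share of the 8988 eligible distal C4-2B enhancers with no C4-2BER peak of either mark (%), by deciles of H3K27ac fold enrichment in C4-2B (left) and of GC content (right). Each bar is 1 decile, labelled by its median, error bars are 95% Wilson intervals and the dotted line is the share over all eligible regions (3.26%). The share was 13.7% in the weakest decile and 0 in the strongest, and it was higher at both ends of GC content than in the middle.

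Base composition, which the choice did not use, split the members into GC-rich and AT-rich regions. Their median GC content was 52.7%, with an order-statistic interval of 49.9 to 54.4 across regions and a range of 35.2% to 73.4%, against 48.3% in retained and 43.8% in acquired regions. CpG dinucleotides stood at a median of 21.0 per kb in members, 15.3 in retained and 9.02 in acquired regions. By deciles of GC content the lost share was 4.34% (3.19 to 5.88) in the most AT-rich decile, 1.22% (0.685 to 2.18) in the fourth, 6.23% (4.83 to 8.00) in the ninth and 7.01% (5.52 to 8.87) in the most GC-rich decile. Regions at both ends were thus lost more often than those in the middle.

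The GC-rich members were the weak ones. A boundary at a fold enrichment of 3, set after the data were seen, left 221 members below it with a median GC content of 55.7% and 72 at or above it with 44.3%. The 34 members at or above 4 had a median of 43.1%. Retained regions below and above 3 differed less, with 51.2% and 47.8%. Regions that kept H3K18ac alone had 54.5% below 3 and 45.7% at or above it. The split by strength was therefore not particular to the members. Below a fold enrichment of 3, 141 of 1155 eligible regions in the GC-richest class were lost (12.2%, 10.4 to 14.2), 33 of 622 in the middle class (5.31%, 3.80 to 7.36) and 47 of 478 in the AT-richest class (9.83%, 7.48 to 12.8). At or above 3 the order was another, with 9 of 1841 lost in the GC-richest class (0.489%, 0.257 to 0.927), 18 of 2374 in the middle (0.758%, 0.480 to 1.20) and 45 of 2518 in the AT-richest (1.79%, 1.34 to 2.38). GC content moved with the loss in both strength classes and in different directions at its upper end. Since base composition also bears on how evenly a library is amplified and sequenced, a difference between libraries and a difference between cells cannot be told apart here.

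**Figure D2:**
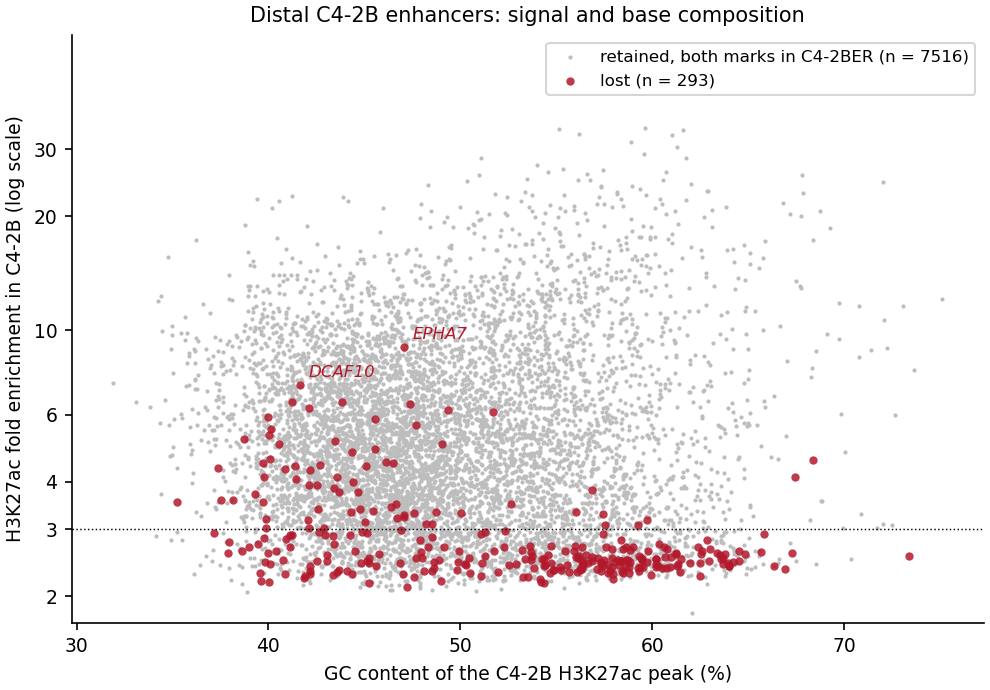
GC content (%) and H3K27ac fold enrichment in C4-2B (log scale) of the 293 lost (red) and 7516 retained (grey) distal enhancers, 1 point per region. The dotted line marks a fold enrichment of 3, below which 221 members gather at GC contents around 55.7%, while the 72 members above it centre on 44.3%.

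The 2 strength classes also lay in different places. A member lay within a protein-coding gene in 205 of 293 cases (70.0%, 64.5 to 74.9), against 52.7% (51.6 to 53.8) of retained and 51.9% (48.8 to 55.0) of acquired regions, and 89 members overlapped an exon (30.4%, 25.4 to 35.9) against 11.1% (10.4 to 11.9) and 8.47% (6.90 to 10.3). Below a fold enrichment of 3, 169 of 221 members were in a protein-coding gene (76.5%, 70.5 to 81.6) and 85 overlapped an exon (38.5%, 32.3 to 45.0). Retained regions of the same strength were in a gene in 58.0% (55.4 to 60.7) and over an exon in 11.8% (10.1 to 13.6) of cases. At or above 3, 36 of 72 members were in a gene (50%, 38.8 to 61.2) and 4 overlapped an exon (5.56%, 2.18 to 13.4), beside 51.6% and 11.0% of retained regions. The excess over retained regions in gene bodies and exons was therefore seen in the weak members. The median distance to the nearest TSS of any kind was 22408 bp (range 10032 to 298715 bp) in members and 22678 bp in retained regions, which hardly differed.

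Members were found on every chromosome with more than 6 eligible regions. The share lost was highest on chromosome 22 with 17 of 280 (6.07%, 3.83 to 9.51), followed by chromosome 19 with 11 of 189 (5.82%, 3.28 to 10.1), and lowest on chromosome 14 with 3 of 298 (1.01%, 0.343 to 2.92). Chromosomes 22 and 19 also had the GC-richest eligible regions, with medians of 54.6% and 53.7%, and held 1 and 0 members of fold enrichment 3 or over. Chromosome 13 had 14 of 272 lost (5.15%, 3.09 to 8.45), of which 7 reached 3, at a median GC content of 47.3%. Of these 7, 4 were a single group in MYCBP2, described below. Copy number of the lines was not analysed here.

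C4-2BER peaks were often close by. A C4-2BER peak of either mark lay within 1 kb of 52 members (17.7%), within 5 kb of 190 (64.8%), within 10 kb of 238 and within 100 kb of 292. At 64 members (21.8%, 17.5 to 26.9) the C4-2B H3K18ac peak that covered the member ran on to meet a C4-2BER H3K18ac peak elsewhere along its length, 62 of them below a fold enrichment of 3. For such members the loss is that of a stretch within a longer acetylated domain. The conditions have sharp edges. The narrowest members were 1001, 1006 and 1006 bp wide and the widest regions excluded for width alone 993, 994 and 995 bp. The members nearest to a TSS lay at 10032, 10053 and 10069 bp and the nearest regions left out at 9887, 9973 and 9997 bp. The C4-2BER peaks closest to a member were 0, 7 and 14 bp away, and the smallest overlaps that kept a region out were 20, 29 and 50 bp.

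The surroundings of the members had fewer C4-2B peaks left in C4-2BER than those of retained regions. Within 100 kb on either side of a member, a median of 60.9% of the other C4-2B H3K27ac peaks overlapped a C4-2BER H3K27ac peak (quartiles 47.4 and 77.8), against 66.7% around regions that kept H3K18ac alone and 77.8% around retained regions (63.6 and 90.9). For H3K18ac the medians were 63.6%, 72.7% and 79.4%. The difference held in both strength classes, with H3K27ac medians of 61.5% and 60% around members below and above a fold enrichment of 3 against 80.0% and 77.8% around retained regions. Around 16 members none of the other H3K27ac peaks was found in C4-2BER, and 8 members had no other H3K27ac peak in the window. Other members could be among the neighbours, and neighbouring windows can share peaks.

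Single members stood alone more often than not. Joining members with gaps of at most 20 kb gave 25 groups of 2 or more, which held 57 members, while 236 stood alone. The AT-rich and the GC-rich kind are each shown by a group of 4. In introns of MYCBP2, which encodes a large E3 ubiquitin ligase with a role in axon development, 4 members lay at chr13:77285480-77308000. Their H3K27ac fold enrichments in C4-2B were 3.38, 5.11, 3.18 and 5.93 and their GC contents 44.8%, 43.5%, 39.9% and 39.97%. The span held 4 H3K27ac and 6 H3K18ac peaks in C4-2B and 0 of either mark in C4-2BER. All 4 reached a fold enrichment of 3, which 72 of the 293 members did. The gene's promoter kept its peaks at lower values. H3K27ac there was 33.1 in C4-2B and 19.7 in C4-2BER (log2 ratio -0.75, beside a median of -0.50 over all genes). H3K18ac was 14.1 and 8.17 (-0.78, beside -0.33).

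In IQSEC1, which encodes an exchange factor for the small GTPase ARF6, 4 members lay at chr3:12906786-12921485. Their fold enrichments were 2.46, 2.66, 2.45 and 2.69 and their GC contents 57.4%, 58.5%, 56.6% and 59.0%. Those of 2.45 and 2.69 overlapped an exon of IQSEC1, and the others were intronic. This span too held 0 C4-2BER peaks, although H3K18ac in C4-2B ran over it in peaks as long as 18860 bp. IQSEC1 was the nearest gene of 17 eligible regions, of which 10 were retained, with fold enrichments up to 9.15. Of the 3 next largest groups, 3 members each, the first lay over exons of ARHGEF18, a guanine nucleotide exchange factor (chr19:7458835-7470423), the second in ANKS1A, an adaptor of Eph receptors (chr6:35073231-35083651), and the third over exons of VAV2, another exchange factor (chr9:133762792-133779776). All 9 had fold enrichments between 2.38 and 2.69 and GC contents between 53.4% and 64.9%. Of the 5 largest groups, 4 were therefore of the weak, GC-rich kind, near the 75.4% of all members that were below a fold enrichment of 3.

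**Figure D3:**
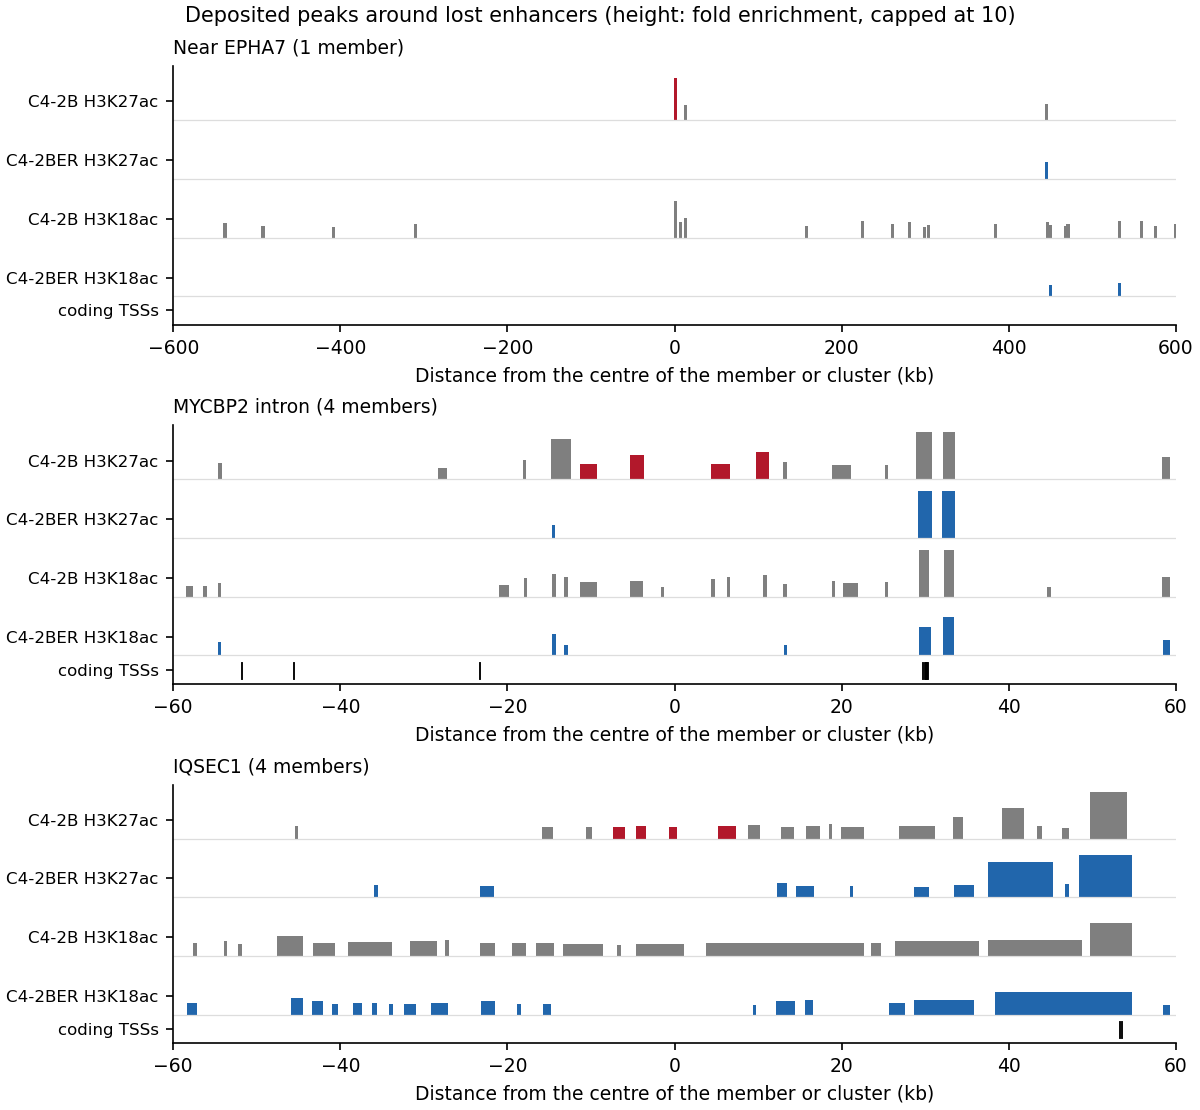
Deposited peaks of the 4 lists around the strongest member near EPHA7 and around the groups of 4 in MYCBP2 and IQSEC1, by distance from the centre (kb). Box height is the fold enrichment, capped at 10, members are red, other C4-2B peaks grey and C4-2BER peaks blue, black ticks are protein-coding TSSs and the narrowest boxes are drawn wider than they are. No blue box lies within the span of the members, and the nearest C4-2BER H3K27ac peak stands 442.4 kb from the EPHA7 member.

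The strongest member stood alone in a gene-poor stretch. It lay at chr6:92420760-92422493 between genes, 823.6 kb from the nearest protein-coding TSS, that of the ephrin receptor gene EPHA7, and 31933 bp from the nearest TSS of any kind. Its fold enrichment was 9.03 for H3K27ac, above 87.4% of the eligible regions, and 7.85 for H3K18ac. The nearest C4-2BER peaks were 442.4 kb away for H3K27ac and 446.8 kb for H3K18ac, and the stretch free of C4-2BER H3K18ac peaks around the member measured 1052.6 kb, the longest around any of the 293. Within 100 kb C4-2B had 2 H3K27ac and 3 H3K18ac peaks, the member's own included. At the EPHA7 promoter H3K27ac was 6.36 in C4-2B and 2.27 in C4-2BER (log2 ratio -1.48, beside a median of -0.50 over all genes) and H3K18ac 6.20 and 3.68.

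The next strongest members were spread over genes of unlike function. A member of 7.18 at chr9:37870176-37871419 lay 11.7 kb from a TSS of DCAF10, a substrate receptor of a ubiquitin ligase, and the nearest C4-2BER peak was 29.4 kb away. Members of 6.49 near VWA3B (chr2:98056199-98057275) and 6.47 near TBC1D30, which encodes a Rab GTPase-activating protein (chr12:64941724-64942805), followed. The TBC1D30 member had a C4-2BER H3K18ac peak of 2.96 only 651 bp away. A member of 6.42 lay 84.2 kb from IRF2, an interferon regulatory factor (chr4:184307504-184308753), and one of 6.26 over an exon of SNX25, a sorting nexin (chr4:185266336-185267883). The last 4 of the 10 were near ACTL7B (6.19, chr9:108787688-108789222), IGSF21 (6.10, chr1:18040410-18042499), MYCBP2 (5.93) and GXYLT1 (5.86, chr12:42011627-42013062). All 10 were between 39.97% and 51.7% GC. Of their nearest genes, DCAF10, TBC1D30, IRF2, SNX25, MYCBP2 and GXYLT1 had promoter H3K27ac fold enrichments above 20 in C4-2B, and VWA3B, ACTL7B, IGSF21 and EPHA7 had them at or below 6.36.

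Of the 5 widest members, 3 were below a fold enrichment of 3, as were 75.4% of all members, and the median width was 1238 bp below 3 and 1470 bp at or above it. The widest, 3945 bp at chr3:52067215-52071159, lay 10.6 kb from DUSP7, a MAP kinase phosphatase, with a fold enrichment of 2.46, a −log10 p of 3.19 and a GC content of 58.1%. Those over exons of ITPR3, an inositol trisphosphate receptor (3314 bp, chr6:33681977-33685290), and of PHF2, a histone demethylase (2930 bp, chr9:93675693-93678622), had 2.65 and 2.53 and GC contents of 60.8% and 61.0%. The others reached 3. They were the member in an intron of FGD4, an exchange factor for CDC42 (3548 bp, chr12:32450100-32453647), with 3.70 at 39.3% GC, and that over an exon of ARFGEF3 (3180 bp, chr6:138333416-138336595), with 3.33 at 48.7%.

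By nearest protein-coding TSS the members fell to 250 genes, of which 217 had 1 member, 25 had 2, 6 had 3 and 2 had 4. For 83 of the 250 (33.2%, 27.7 to 39.3) every eligible region was lost, but 75 of these 83 had 1 eligible region. Of the 175 genes with more than 1, 8 lost all of them (4.57%, 2.33 to 8.76) and 146 kept at least 1 retained region (83.4%). IGF1R, the receptor of insulin-like growth factor 1, had 3 members with fold enrichments of 2.44, 2.45 and 3.26 among 10 eligible regions, of which 6 were retained. STK39, a kinase that controls ion cotransport, had 3 members up to 4.51 among 11, of which 3 were retained and 5 kept H3K18ac. MAD1L1, a spindle checkpoint gene, had 3 of 9, SARDH, a mitochondrial sarcosine dehydrogenase, 3 of 6 and URB1, a ribosome biogenesis factor, 3 of 4. The 3 nearest to SARDH are the group over exons of VAV2 given above and lie outside SARDH. MYCBP2 lost 4 of 5 eligible regions, and its retained one had a fold enrichment of 6.11. ANKS1A lost 3 of 3, which are its group given above, and GPR161, a receptor that restrains Hedgehog signalling, 2 of 2. Of these 2, the member of 4.32 lay in an intron of DCAF6 and that of 2.63 in one of GPR161. KLHL29 lost 2 of 10. Around the 3 STK39 members C4-2B had 20 to 26 H3K27ac peaks within 100 kb, against 4 to 6 in C4-2BER. Not every member had fewer C4-2BER peaks around it. The counts in C4-2B and C4-2BER were 13 and 17 around the DCAF10 member and 8 and 8 around the IRF2 member.

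Members also lay near FKBP5, which encodes a co-chaperone of steroid receptors, CAMKK2, a kinase gene, and MAF, which encodes a transcription factor. The FKBP5 member (chr6:35606244-35608743, intronic) was 2500 bp wide with a fold enrichment of 3.22 for H3K27ac and 3.14 for H3K18ac, and C4-2BER peaks of 7.36 and 5.00 lay 1.90 and 1.91 kb away. Of the 7 eligible regions nearest to FKBP5, 2 were retained and 4 kept H3K18ac. Within 100 kb of the member C4-2B had 27 H3K27ac peaks and C4-2BER 7. A stronger member also lay within the FKBP5 gene (chr6:35588186-35590846, 2661 bp), with fold enrichments of 4.40 for H3K27ac and 3.27 for H3K18ac. Its nearest protein-coding TSS was that of TULP1, 75290 bp away, so it is counted under TULP1. The CAMKK2 member (chr12:121244403-121245699, over an exon) had 2.38 and the MAF member (chr16:79758621-79759787, in an intron of a lncRNA) 2.58. The FKBP5 promoter had an H3K27ac fold enrichment of 25.2 in C4-2B and 13.3 in C4-2BER, that of CAMKK2 22.9 and 14.9, and that of MAF 11.0 and 6.89. Their log2 ratios were -0.93, -0.62 and -0.67, beside a median of -0.50 over all genes (quartiles -0.75 and -0.25). None of them met the call of a decreased promoter described below.

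Lists of lineage and neuronal genes held few eligible regions. Of 51 eligible regions near 18 luminal and lineage transcription factors, 2 were lost (3.92%, 1.08 to 13.2) and 45 retained, beside 3.26% lost over all eligible regions. One lay 85.1 kb from GATA3 (chr10:8143516-8144560) with a fold enrichment of 4.00, and the other 58.8 kb from EHF, an epithelial ETS factor (chr11:34701404-34702412), with 2.18, the fourth lowest of all members. Near 16 keratin and epithelial adhesion genes, 1 of 16 eligible regions was lost (6.25%, 1.11 to 28.3), in an intron of TJP1, which encodes the tight junction protein ZO-1 (chr15:29770522-29771801), with 2.82. Near 28 neuronal adhesion and Pax5 target genes, a list that joins genes the study names to other adhesion genes, 2 of 17 were lost (11.8%, 3.29 to 34.3), an interval that lies just above 3.26%. Both regions belonged to genes added to those the study names. One was 12.4 kb into CADM2, a synaptic adhesion gene (chr3:84971968-84973236), with 4.35 for H3K27ac and 6.57 for H3K18ac, and the other 728.6 kb from ROBO1, a receptor of the axon guidance protein Slit (chr3:80496618-80497739), with 2.71. The CADM2 promoter went from 12.7 to 6.15. Near 30 NE genes 0 of 15 eligible regions were lost, near 23 androgen metabolism genes 0 of 6, near the 10 luminal markers 0 of 10 and near the 12 NE markers 0 of 4. Counts of 0 allow shares of up to 20%, 50%, 30% and 75% here, at 3 counts of the total. The fibroblast and leukocyte markers had 0 eligible regions. The intervals of the luminal factor list and of the keratin and adhesion list held 3.26%, and the limits of the lists with a count of 0 lay above it. The neuronal list rests on 2 members.

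Promoters lie outside the members, so the marks there were compared between the lines for the nearest genes. A promoter, 2000 bp before to 500 bp after any TSS of the gene, was called decreased with a peak in C4-2B only or a C4-2B fold enrichment at least 2 times as high, and increased in the mirrored case. Of the 234 nearest genes with an H3K27ac promoter peak in either line, 34 were decreased (14.5%, 10.6 to 19.6), beside 10.8% of the 15346 protein-coding genes with one and 11.8% (10.7 to 12.9) of the genes nearest to retained regions. Only 2 were increased (0.855%, 0.235 to 3.06), PMFBP1 and SMIM28, named after their values were seen, beside 4.56% of all and 3.11% (2.57 to 3.75) of genes near retained regions. For H3K18ac, 11 of 245 were decreased (4.49%, 2.52 to 7.86) beside 5.90% of all, and 2 were increased (0.816%, 0.224 to 2.93) beside 2.15%. The decreased shares thus lay near the background, with its value inside the interval, while the increased H3K27ac share lay under it. Genes nearest to regions that kept H3K18ac alone had 15.96% decreased for H3K27ac (13.55 to 18.7) and 2.32% increased (1.47 to 3.63). Neither H3K27ac share was therefore particular to the members. PMFBP1 and SMIM28 had no H3K27ac promoter peak in C4-2B and weak ones of 2.08 and 2.82 in C4-2BER. The background includes genes that are nearest to no distal enhancer, and 93.6% of the 250 nearest genes had an H3K27ac promoter peak against 76.6% of all 20033.

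Most promoters had a lower fold enrichment in C4-2BER, so the shift is set against that of all genes. Over the 223 nearest genes with an H3K27ac peak in both lines, the median log2 ratio of C4-2BER to C4-2B was -0.60 (quartiles -0.79 and -0.39), against -0.50 over 14304 genes and -0.54 over genes near retained regions. Genes near regions that kept H3K18ac alone had a median of -0.55. The ratio was below 0 in 211 of the 223 (94.6%) and in 87.8% of all genes. For H3K18ac the median was -0.38 against -0.33. Regions shared by the lines had a median of -0.17 for H3K27ac, and centring on that left 7.69% of the nearest genes decreased beside 6.37% of all.

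**Figure D4:**
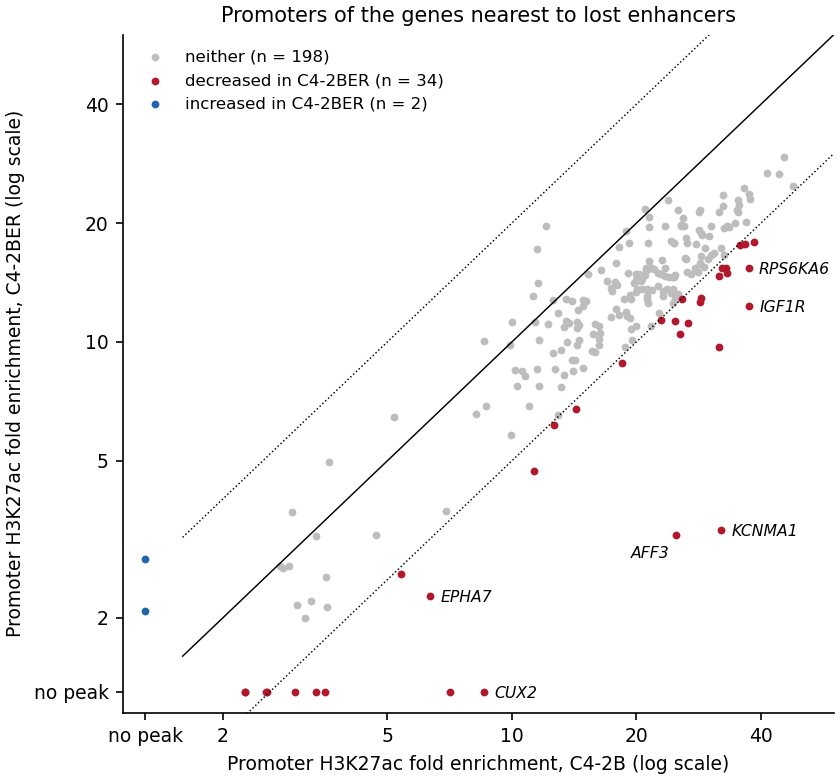
Promoter H3K27ac fold enrichment in C4-2B and C4-2BER (log scales) of the 234 genes nearest to a lost enhancer that had a promoter peak in either line, 1 point per gene, with genes lacking a peak in 1 line drawn at the edge. The solid line is equality and the dotted lines a ratio of 2, and 34 genes are decreased, 2 increased and 198 neither.

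The 34 decreased promoters held some large differences, although the members near them were mostly weak. They are named after their values were seen. KCNMA1, a calcium-activated potassium channel gene, had a promoter H3K27ac fold enrichment of 32.0 in C4-2B and 3.34 in C4-2BER (log2 ratio -3.26) and H3K18ac of 12.1 and 4.81. Its member had 2.71, and of its 17 eligible regions 10 were retained and 6 kept H3K18ac. AFF3, which encodes a subunit of elongation factor complexes, had 24.96 and 3.23 (-2.95), with 1 member of 2.69 and 6 of 10 eligible regions that kept H3K18ac alone. IGF1R had 37.4 and 12.3 (-1.60), and for H3K18ac 15.6 and 6.15. CUX2, a neuronal homeobox gene, had 8.56 in C4-2B and no H3K27ac peak in C4-2BER, where H3K18ac was 3.16 against 6.76. RPS6KA6, a ribosomal S6 kinase gene, had 37.4 and 15.4 (-1.28). The promoters of ELOVL5, a fatty acid elongase, and PIAS1, a SUMO ligase, had ratios of -1.10 and -1.10. RALYL had 7.09 and no peak, with 2 members of 3.91 and 4.12 and no other eligible region.

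Short motifs in the central 1000 bp of each region differed between members and retained regions, and many also went with base composition. The forkhead letters TGTTTNC were found in 51.2% of members (45.5 to 56.9), 60.6% of retained (59.5 to 61.7) and 64.5% of acquired regions (61.5 to 67.4). In members of fold enrichment 3 or over the share was 68.1% (56.6 to 77.7), and in weaker ones 45.7% (39.3 to 52.3). The shares in retained regions of these strengths were 61.7% and 55.6%, the first inside the interval of the strong members. Within the AT-richest, middle and GC-richest classes the forkhead share was 59.8%, 62.7% and 42% in members and 68.5%, 62.3% and 50.02% in retained regions, so the share went with base composition in both sets. The GATA letters AGATAA were found in 51.4% (40.1 to 62.6) of strong and 29.9% (24.2 to 36.2) of weak members, and in 41.5% of retained regions. Retained regions of fold enrichment 3 or over had 42.3%, inside the interval of the strong members, and weaker ones 37.6%. Acquired regions had 54.2% (51.1 to 57.2). Within the same 3 classes of GC content the members had 54.3%, 45.1% and 20% and retained regions 56.7%, 41.98% and 24.3%.

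The HOXB13 letters CAATAAA were found in 14.3% of members (10.8 to 18.8) and 20.3% of retained regions (19.4 to 21.2), with 27.2% and 30.3% in the AT-richest class. AP-1 sites (TGANTCA) were in 20.5% (16.2 to 25.5) and 27.3% (26.4 to 28.4), and the grainyhead letters AACCNGTT in 4.78% (2.87 to 7.86) and 8.87% (8.25 to 9.54). In the AT-richest, middle and GC-richest classes AP-1 stood at 21.7% (14.5 to 31.2), 23.5% and 18.7% in members and 30.04% (28.3 to 31.9), 30.4% and 20.9% in retained regions. Grainyhead letters stood at 6.52%, 3.92% and 4% in members and 10.4%, 10.2% and 5.76% in retained regions. Both were thus less frequent in the members of each class, with intervals that overlapped in every class. ETS letters (CCGGAAG) were in 8.87% of members (6.13 to 12.7), 4.896% of retained (4.43 to 5.41) and 2.99% of acquired regions, and in the GC-richest class in 14.7% (9.89 to 21.2) and 8.86% (7.77 to 10.1) of members and retained regions.

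Of the motifs left, the E-box CAGATG, which NEUROD type factors read, was in 57.0% of members and 51.8% of retained regions. It stood at 38.0% (28.8 to 48.3) and 46.0% (44.1 to 47.95) in the AT-richest class and at 66.7% (58.8 to 73.7) and 56.9% (54.8 to 58.9) in the GC-richest, so the order of members and retained regions was not the same at both ends. The CTCF core CCACNAGG was in 22.2% and 17.0%, the SP/KLF letters GGGCGGG in 15.4% and 13.3%, the RUNX letters TGTGGTT in 16.4% and 15.2%, TGATTGAT of PBX-HOX pairs in 1.37% and 2.26%, and the left part of the REST element, TTCAGCACC, in 1.02% and 1.04%. A match is a run of letters and not a bound site.

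**Figure D5:**
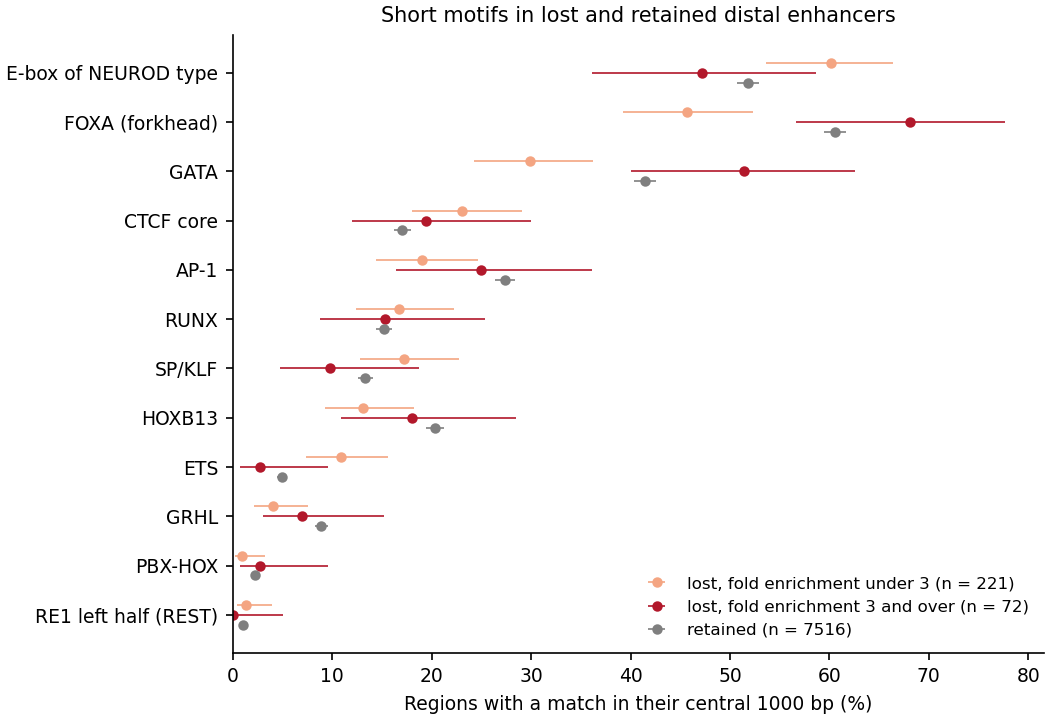
Share of regions with a match in their central 1000 bp (%) for 12 short motifs, in lost enhancers of fold enrichment under 3 (221, light), of 3 and over (72, red) and in retained regions (7516, grey). Points are shares and lines are 95% Wilson intervals. Of the sets drawn, forkhead and GATA letters are most frequent in the strong members, whose intervals hold the retained shares. ETS letters are most frequent in the weak members.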

How the data were processed

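H3K27ac and H3K18ac were profiled in C4-2B and C4-2BER. Per the study's methods, the authors mapped reads on GRCh38 using bowtie2, discarded duplicates, poorly mapped reads and blacklisted regions, and called broad peaks with macs2 on merged replicates. The submitters' notes name Bowtie2 2.2.3, Trimmomatic 0.33 and bcl2fastq 2.17. In the 4 deposited lists the authors give each peak's fold enrichment, a ratio of ChIP signal to local background that is scaled within its list, and its −log10 p-value and −log10 q-value, the lowest −log10 q being close to 1 in each list. Depth is not given, so intervals cover counting error only.

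All peaks of the autosomes and of X and Y were kept. 0 peaks ran past a GRCh38 chromosome end. TSSs were taken from every protein-coding or lncRNA gene's transcripts (GENCODE release 44). GC content, motifs and sequences were read from GRCh38. The value of a promoter was the highest fold enrichment of the overlapping peaks. That of H3K18ac over a region was the mean fold enrichment of the overlapping peaks, weighted by peak width. With 1 pooled list per mark and line, nothing was tested between the lines. Members and lists were chosen with earlier results of these data known. The text names the 10 members of highest fold enrichment, the 5 widest, the 5 groups with most members, the 10 genes with most members and each list gene with a member, and says where others were picked. Results were recomputed under 14 set alternatives and 2 chosen after seeing the data. The selection and promoter calls were tested on simulated peak lists. Software was Python 3.11.15, pandas 2.3.3, pyfaidx 0.9.0.4, scipy 1.17.1 and samtools 1.23.1. Some motifs, 1 gene list and the sequences of 4 of the strongest members are not reported here. ATAC-seq, RNA-seq and reads were not used here.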

Additional observations from a re-analysis of the deposited data

How the results depend on the processing

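The number of members was 793 at a minimum width of 500 bp, 40 at 2000 bp, 480 and 44 at TSS distances of 5 and 50 kb, 752 with Ensembl canonical TSSs only, 16 with a fold enrichment of at least 4 in both C4-2B lists and 1420 when only C4-2BER H3K27ac had to be absent. In the same order the lost share was 5.30%, 1.12%, 3.77%, 2.80%, 5.03%, 0.435% and 15.8%. It was 7.13% at a −log10 q of at least 5 in all lists, 2.89% with H3K18ac over at least 50% of the peak and 2.68% with no C4-2BER peak within 1000 bp. Median GC content was 48.3% at 2000 bp, 54.5% at 5 kb, 56.3% with canonical TSSs, 44.1% at a fold enrichment of at least 4, 46.9% at the −log10 q of 5 and 54.8% with the wider H3K18ac overlap. With an H3K27ac fold enrichment of at least 3, chosen after seeing the data, these values were 72, 1.07% and 44.3%, so the high GC content rests on the weak peaks. The other added alternative, a C4-2BER H3K27ac list cut to the length of the C4-2B list, gave 308 members. The share of nearest genes with a decreased promoter was 24.3% at 50 kb, which is 9 of 37 genes, beside 10.8% of all genes. After centring it was 7.69%, beside 6.37% of all genes, and it moved little under 13 other settings.

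In the central 500 bp, motif shares were lower by construction, at 34.5% (forkhead), 8.53% (HOXB13), 11.6% (AP-1), 1.71% (grainyhead), 25.9% (GATA), 4.78% (ETS), 7.51% (SP/KLF), 33.8% (E-box), 12.3% (CTCF), 8.19% (RUNX) and 0.341% (PBX-HOX). No paired analysis was possible because the authors merged the replicates before calling peaks, and for the same reason no library could be left out.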

Other observations

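Some members stood in stretches where C4-2BER had few peaks at all. After the one near EPHA7, the longest stretches without a C4-2BER H3K18ac peak were 352125 bp around a member in GPC6, a glypican gene (chr13:93472410-93474069, fold enrichment 2.39), 275431 bp around one near THUMPD2 (chr2:39874836-39877031, 3.39), 271988 bp around one near MEIS1, a homeobox gene (chr2:66802325-66803693, 4.79), and 260119 bp around one in RPS6KA6 (chrX:84065888-84066910, 2.63). The median over all members was 18881 bp. They are singled out here because of these lengths. The promoters of GPC6 and RPS6KA6 had H3K27ac fold enrichments of 32.3 and 37.4 in C4-2B and 15.4 and 15.4 in C4-2BER. Both kept a peak and were among those called decreased.

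Of the 34 members of fold enrichment 4 or over, 2 fell in the GC-richest class. One lay in an intron of ELOVL5 (chr6:53304790-53306276), with a fold enrichment of 4.55, a GC content of 68.4% and 65.2 CpGs per kb. C4-2BER H3K18ac stood 2262 bp from it. The other lay between genes near SMC2 (chr9:104234775-104236098), with 4.12, 67.5% and 61.2 CpGs per kb, and C4-2BER H3K18ac stood 12400 bp from it.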
